A study of Mus musculus with 12 samples.

Results

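Fibroblasts that carry *Fbln7*, *Gpnmb* and *Sfrp4* were described in cells of mouse hind limb joints profiled by droplet single-cell RNA-seq. A cell was taken as a member when it had from 501 to 4999 detected genes, at least 4 of the fibroblast markers *Dcn*, *Lum*, *Fbln1*, *Gsn*, *Pdgfra*, *Pdpn* and *Serpinf1*, at least 4 of the 6 subset markers *Fbln7*, *Gpnmb*, *Sfrp4*, *Ecm2*, *Itgbl1* and *Angptl7*, and at most 2 of the tenocyte markers *Tnmd*, *Mkx*, *Scx*, *Thbs4* and *Kera*. A gene counted as detected with 1 or more unique molecular identifiers (UMIs, which count molecules). Members numbered 2214 of the 14227 cells that met the fibroblast and tenocyte conditions, of 20213 cells within the limits on genes and of 21042 deposited cells. The other 12013 cells are called other fibroblasts. The rule reads measured values of these cells, so the levels of its 18 genes are given as a description and not as a test.

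The joints came from male C57BL/6 mice 8 to 10 weeks of age in serum transfer-induced arthritis, a model in which serum of K/BxN mice, injected intravenously, starts an arthritis that resolves by itself. Cells were released from hind limb joints by enzyme digestion and sorted as live cells without CD45, the surface protein of leukocytes, so the libraries hold stroma with its vessels, cartilage, bone and tendon cells. Of the 12 libraries, 3 were labelled rest (day 0) and 3 peak (days 7 to 9). A further 3 were labelled resolving, taken on day 15, and the last 3 resolved, taken on day 22. Each library pooled the joints of 3 animals. All animals were of 1 strain, and the animals labelled rest are the reference for the others.

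Fibroblasts of the joint differ by place. Lining fibroblasts face the joint space and make the lubricant *Prg4*, sublining fibroblasts fill the tissue below and surround vessels, and tenocytes build tendon and ligament. The 6 subset markers all act at or outside the cell surface. *Fbln7* encodes a fibulin, a glycoprotein of the matrix, and *Ecm2* a matrix protein with leucine-rich repeats related to decorin. *Gpnmb* encodes a membrane glycoprotein of lysosomes and the cell surface that is switched on by MiT/TFE transcription factors. *Sfrp4* encodes a secreted antagonist of Wnt signalling, *Itgbl1* a secreted protein with integrin-like repeats, and *Angptl7* a secreted angiopoietin-like factor.

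On GRCm38, the mm10 build of the deposited files, *Fbln7* lies on chromosome 2 from 128862981 to 128897034 on the plus strand, and *Gpnmb* on chromosome 6 from 49036546 to 49070929 on the plus strand. *Sfrp4* and *Ecm2* are both on chromosome 13, *Sfrp4* from 19623104 to 19632994 and *Ecm2* from 49504810 to 49532789, each on the plus strand. *Itgbl1* lies on chromosome 14 from 123659971 to 123975618 on the plus strand, and *Angptl7* on chromosome 4 from 148495183 to 148500460 on the minus strand. All 6 are protein-coding genes, and the UMIs counted exonic reads from the 3′ end of transcripts.

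The libraries held between 7969872 and 17047322 UMIs and between 1277 and 2817 deposited cells, and the median deposited cell of each held 5358 UMIs. No cell barcode was shared between libraries. The barcodes of each library end in a suffix from 1 to 12. Suffixes 1 to 3 are rest, peak and resolving replicate 1. Suffixes 4 to 6 are resolved replicate 1, rest replicate 2 and peak replicate 2. Suffixes 7 to 9 are resolving and resolved replicate 2 and rest replicate 3, and suffixes 10 to 12 are peak, resolving and resolved replicate 3. Over the summed counts of members in 8205 genes, the library most correlated with a given library lay in the same run of 3 suffixes in 11 of 12 cases and had the same label in 0 of 12. What a run stands for is not given in the sources used here. Comparisons are therefore given both by label and by run, runs are named by their suffixes only, and each run mixes 3 labels.

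Members were not 1 cluster of cells. All cells were clustered on their variable genes with the 18 rule genes, the subset markers among them, left out. Members fell in 16 of 23 clusters, and 7 clusters held over 5% of them each. The cluster led by *Clu*, *Wif1* and *Cilp2* held 24.5% of members and 5.29% of other fibroblasts, and 391 of its 542 members came from suffixes 10 to 12. The cluster led by *Inmt*, *C4b* and *Penk* held 15.2% of members, that led by *Spon2*, *C1qtnf3* and *Angptl1* held 13.6%, and that led by *Pi16*, *Krtdap* and *Efhd1*, genes of the sublining pattern, held 12.2%. Suffixes 7 to 9 gave 263 of the 302 members in the *Spon2* cluster. The *Clu* and *Spon2* clusters also held 739 and 754 of the 2203 cells that met the fibroblast condition and had at least 3 tenocyte markers. The clusters led by *Bglap*, an osteoblast gene, and by *Prg4* held 6.19% and 3.12% of members. The cells are therefore named by the rule and not as a cell type.

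**Figure D1:**
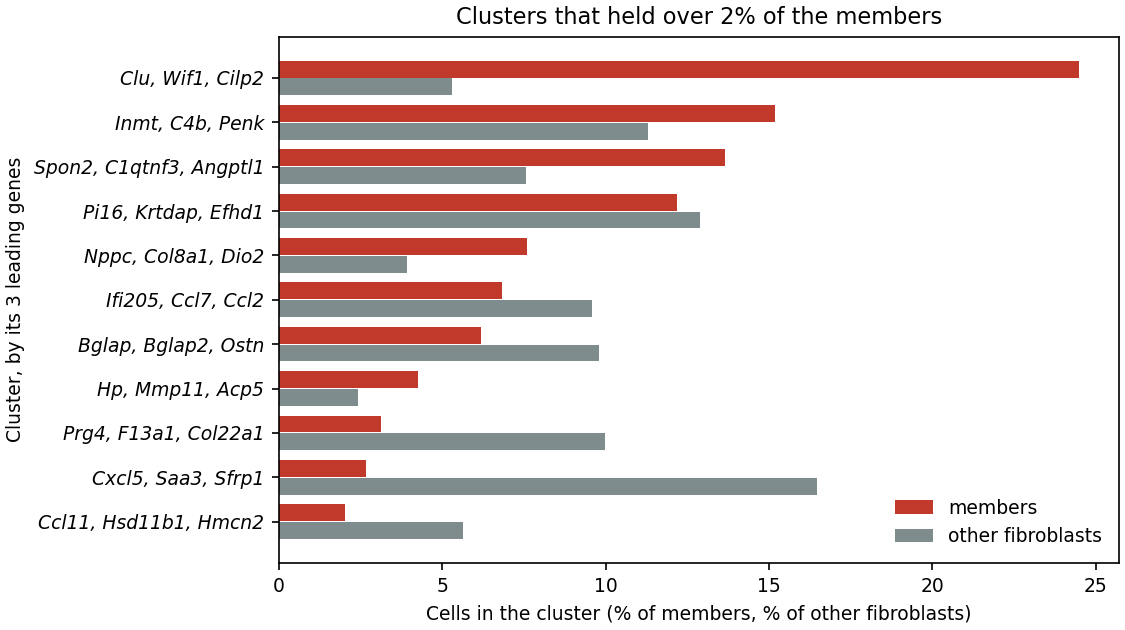
Percent (x-axis) of members (red bars) and of other fibroblasts (grey bars) in each of the 11 clusters that hold over 2% of members, named by their 3 leading genes outside the rule genes. The cluster led by *Clu*, *Wif1* and *Cilp2* holds the largest percent of members, 24.5, and 5.29 of other fibroblasts.

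The markers that made a cell a member varied with the cluster. *Angptl7* was detected in 83.2% of members in the *Clu* cluster and in 36.2% of those in the cluster led by *Hp*, *Mmp11* and *Acp5*. *Fbln7* was detected in 87.4% of members in the *Spon2* cluster and in 33.0% in the *Pi16* cluster. *Sfrp4* had the opposite order in another pair, with 41.0% in the *Clu* cluster, 89.3% in the *Pi16* cluster and 90.5% in the *Bglap* cluster. *Gpnmb* ranged from 46.7% in the *Spon2* cluster to 89.3% in the *Inmt* cluster. Members of different clusters thus met the rule through different sets of markers.

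Over all members, *Ecm2* was detected in 88.8%, *Itgbl1* in 84.0%, *Gpnmb* in 73.9%, *Fbln7* in 66.0%, *Sfrp4* in 65.9% and *Angptl7* in 59.4% of cells. In other fibroblasts the shares were 40.6%, 34.9%, 21.8%, 23.6%, 25.3% and 15.1%. Cells with endothelial markers were set beside them as a class of another lineage. With a median of 3091 UMIs per cell against 6557.5 in members and 5546 in other fibroblasts, they held *Ecm2* in 26.8%, *Itgbl1* in 1.51%, *Gpnmb* in 1.23%, *Fbln7* in 2.51%, *Sfrp4* in 2.79% and *Angptl7* in 7.53%. *Ecm2* was thus the least specific of the 6. *Ecm2* was found there more often than *Angptl7*, whose median level was higher both in members and in other fibroblasts. Whether these UMIs are free RNA or the cells' own was not tested. Outside members, *Itgbl1* was detected in 89.6% of cells with at least 3 tenocyte markers and in 4.90% of cells with at least 3 lining markers, while *Fbln7* was detected in 62.4% of the lining-marker cells.

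At the edge of the rule, 2734 fibroblasts had 3 subset markers and stayed outside, with a median of 5897.5 UMIs, and 1491 had 4 and were inside, with 6389. There were 602 cells with 5 and 121 with all 6. Among the cells with 4 markers, the one most often missing was *Angptl7* (49.5%), and the one least often missing was *Ecm2* (15.6%). Of cells with at least 4 subset markers, 713, 777 and 724 had 0, 1 and 2 tenocyte markers and were members, and 638 had 3 and were not. Deeper cells met the rule more often, and with the rule applied to a random 50% of each cell's UMIs, 1198 cells were members. In the other UMIs *Fbln7* was found in 57.2% of these cells against 21.5% of the remaining fibroblasts, and *Gpnmb* in 52.7% against 18.5%.

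Levels were computed from UMIs summed over the members of a library and scaled to the total of that sum (CPM). Across the 12 libraries *Fbln7* had 302 to 913 CPM in members (median 460.2) and 38.6 to 307 CPM in other fibroblasts (median 179). *Gpnmb* had 124 to 363 CPM in members (median 263) and 24.8 to 124 CPM in other fibroblasts (median 67.4), and *Sfrp4* had 546 to 1899 CPM in members (median 1037) and 99.1 to 491 CPM in other fibroblasts (median 294). Each was higher in members in 12 of 12 libraries, which the rule sets. *Ecm2* had 169.6 to 661 CPM in members (median 351) and 42.0 to 261 CPM in other fibroblasts (median 154). *Itgbl1* was the steadiest, with 355 to 454 CPM in members (median 416) and 75.3 to 190.1 CPM in other fibroblasts (median 111). *Angptl7* varied most, with 356 to 3321 CPM in members (median 1635) and 62.1 to 975 CPM in other fibroblasts (median 229.9), and in tenocyte-marker cells it reached 382 to 10258 CPM.

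The markers did not follow one another across the suffixes. *Fbln7* in members had its highest levels in suffixes 10 to 12, at 641 to 913 CPM, and *Sfrp4* in suffixes 1 to 3, at 1272 to 1899 CPM against 546 to 839 in suffixes 4 to 6. *Sfrp4* had 590 to 1337 CPM in suffixes 7 to 9, which overlapped suffixes 1 to 3. *Gpnmb* was lowest in suffixes 7 to 9, at 124 to 208 CPM against 284 to 363 in suffixes 10 to 12, and overlapped suffixes 4 to 6, at 177 to 306. *Angptl7* ranged over 356 to 597 CPM in suffixes 7 to 9 and 2110.0 to 3321 in suffixes 10 to 12, with no overlap. *Itgbl1* overlapped between all 4 runs. Of the fibroblast markers, *Dcn*, *Lum*, *Serpinf1* and *Fbln1* were higher in members than in other fibroblasts in 12 of 12 libraries, *Pdgfra* in 9, *Pdpn* in 7 and *Gsn* in 3.

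**Figure D2:**
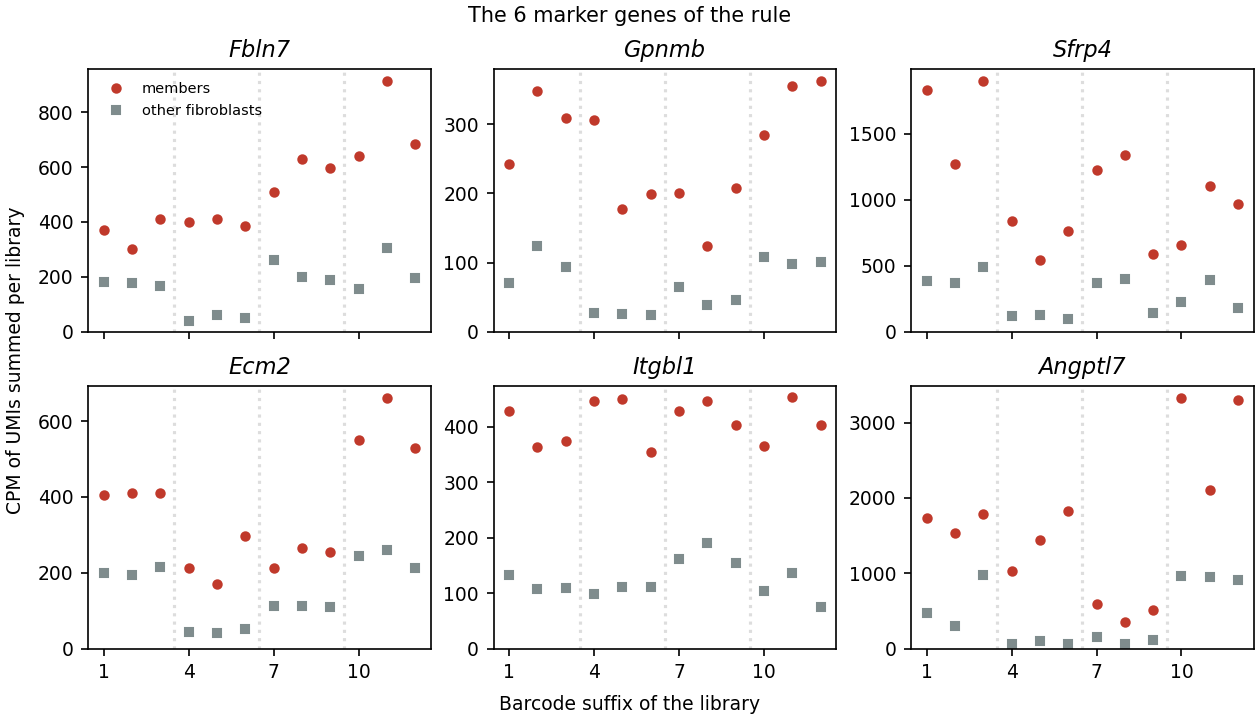
CPM of the 6 subset markers (y-axis) in each library by barcode suffix (x-axis), with members as red circles and other fibroblasts as grey squares. Members lie above other fibroblasts in every library, as the rule sets, and *Angptl7* spans 356 to 3321 CPM in members while *Itgbl1* spans 355 to 454.

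Markers of other cell types were present in part of the members. Of the 2214, 745 (33.6%) had at least 3 of the 5 sublining markers, 35 (1.58%) at least 3 of the 5 lining markers, 139 (6.28%) at least 3 osteoblast markers and 45 (2.03%) at least 3 chondrocyte markers. Cells with 3 or more immune markers numbered 0, which allows a share of up to 0.136%. Of members, 724 (32.7%) had 2 tenocyte markers, the most the rule allows, against 15.6% of other fibroblasts. Median levels in members and other fibroblasts were 294 and 83.7 CPM for *Tnmd*, 841 and 426 for *Thbs4* and 24.3 and 3.94 for *Kera*. They were 8.97 and 7.11 CPM for *Mkx* and 6.29 and 6.46 for *Scx*. The summed level of the chondrocyte markers in members was 988 to 3204 CPM in suffixes 1 to 3, 110 to 157 in 4 to 6, 127 to 219 in 7 to 9 and 40.7 to 297 in 10 to 12. That of the osteoblast markers was 1280 to 5078, 216 to 623, 129 to 668 and 699 to 1492 CPM. Of members, 9.98% had a doublet score in the top 6% of their library, against 5.23% of other fibroblasts. The part of skeletal cells and doublets in the differences below was measured only by leaving such cells out.

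Members made up between 3.46% and 34.9% of the fibroblasts of a library, with a median of 14.2%. By label, the mean share was 11.7% ± 7.73 in libraries labelled rest, 13.5% ± 10.3 at peak, 21.5% ± 11.7 in the resolving stage and 15.3% ± 11 in the resolved stage (SD, n = 3 each). The labels did not differ beyond the spread between libraries (exact permutation test over all 15400 divisions, p = 0.69). Against rest, the differences of 1.79, 9.75 and 3.62 percentage points had p = 0.8, 0.3 and 0.7 in two-sided exact permutation tests, with an adjusted p of 0.8 for each of the 3, and 3 libraries against 3 cannot give less than 0.1. Within runs of suffixes the direction differed. In the 3 runs that hold a peak library it had the lowest share of its run, and peak minus rest was -7.51 percentage points in suffixes 1 to 3 and -2.29 in suffixes 4 to 6. Resolving minus rest was -4.01 points in suffixes 1 to 3 and 4.17 in suffixes 7 to 9, and resolved minus rest was -1.37 in suffixes 4 to 6 and 6.36 in suffixes 7 to 9. With the run as a block, a test added after seeing the data, the labels again did not differ beyond the spread (exact permutation of the labels within runs, 1296 arrangements, p = 0.387).

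By suffix the shares separated. They were 20.4%, 12.9% and 16.4% in suffixes 1, 2 and 3, then 4.38%, 5.76% and 3.46% in suffixes 4, 5 and 6. Suffixes 7, 8 and 9 had 13.1%, 15.3% and 8.92%, and suffixes 10, 11 and 12 had 24.1%, 34.9% and 26.3%. All 3 libraries of suffixes 4 to 6 lay below the other 9, and all 3 of suffixes 10 to 12 lay above them. The run means were 16.6% ± 3.76, 4.53% ± 1.15, 12.4% ± 3.23 and 28.4% ± 5.69 (SD, n = 3 each), runs accounted for 88.5% of the sum of squares between libraries, and the exact permutation test over 15400 divisions gave p = 0.000195. Since earlier results of these data had led to the runs, this p describes their separation and is not an independent test.

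Depth moved with part of this. In suffixes 4, 5 and 6 members had medians of 4305, 5694.5 and 3767 UMIs against 7359.5, 6674 and 6289 in other fibroblasts, while members were the deeper cells in the other 9 libraries. With each cell thinned to 2000 UMIs, 752 members remained, and the run means were 5.66%, 1.83%, 3.52% and 13.5% (exact permutation test, p = 0.00013). The order of the runs was the same after thinning.

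**Figure D3:**
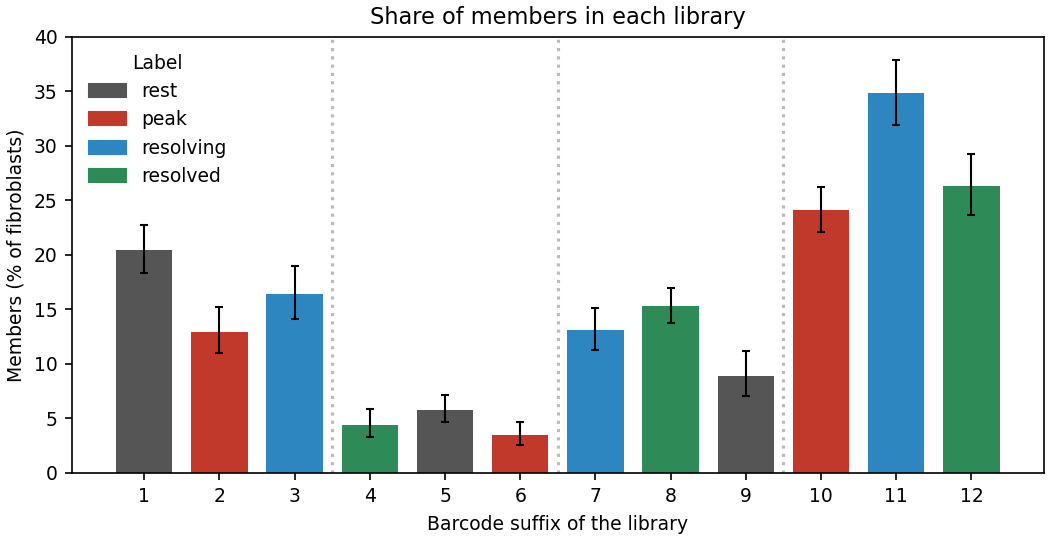
Percent of fibroblasts that are members in each library (bars, y-axis) by barcode suffix (x-axis), coloured by the labelled stage, with 95% Wilson intervals that cover counting error only and dotted lines between runs of 3 suffixes. Suffixes 4 to 6 lie between 3.46% and 5.76% and suffixes 10 to 12 between 24.1% and 34.9%.

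Members were next compared with other fibroblasts of the same library, with the 18 rule genes left out. Of 10410 genes, 661 (6.35%) had an adjusted p under 0.05 and a log2 fold change above 0.5 or below -0.5. Of these, 291 (2.8% of the genes) were higher in members and 370 (3.55%) lower. Most genes of the complement list and some small leucine-rich proteoglycans and matrix proteases were among the higher genes, and inflammatory chemokines and genes of cartilage, bone and smooth muscle among the lower ones. When other fibroblasts were drawn to match the clusters of members, 351 of the 661 could be tested and 82 genes passed in all, of which 71 were among the 661. With total counts in place of TMM factors 201 genes were higher and 466 lower, so 30.1% of the calls were higher in place of 44.0%, and each of the 661 kept its direction. Without the 6% of cells of highest doublet score, 635 genes passed, 588 of them among the 661. With the rule set on 50% of the UMIs and the levels taken from the rest, 451 genes passed, 318 of them among the 661.

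Among genes with a mean of at least 50 CPM in the higher class and 1 direction in every library, *Cilp2* had the largest fold. It encodes a matrix protein of cartilage and other dense connective tissue. It had 85.1 to 398 CPM in members (median 221) and 17 to 219.8 CPM in other fibroblasts (median 72.8), and was higher in 12 of 12 libraries (log2 fold change 1.53, SE 0.26, adjusted p = 0.000334). The ranges overlapped, and with clusters matched the log2 fold change was 0.23 and was not called. *Fmod*, a proteoglycan that organises collagen fibrils, had 911 to 2196 CPM in members (median 1413) and 280.1 to 918 CPM in other fibroblasts (median 595), with log2 fold change 1.41 (SE 0.13, adjusted p = 3.98e-07). *Cpxm2*, a carboxypeptidase-like secreted protein, had 80.4 to 271 CPM in members (median 136) and 25.7 to 94.2 CPM in other fibroblasts (median 65.6), with log2 fold change 1.34 (SE 0.08, adjusted p = 9.18e-10). For *Cpxm2* and *Fmod* the level in members exceeded that in other fibroblasts of the same library in all 12. *Angptl1*, an angiopoietin-like relative of *Angptl7*, had 145 to 833 CPM in members (median 283) and 75.8 to 399 CPM in other fibroblasts (median 126), with log2 fold change 1.27 (SE 0.12, adjusted p = 3.55e-07).

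The others of the 10 largest higher genes within these limits had smaller folds. They were the complement protease *C2* (log2 1.20), *C1qtnf2* (1.10), *Pamr1* (1.07), the BMP antagonist *Chrdl1* (1.04), *Igfbp6*, a binding protein of insulin-like growth factors (1.04), and *Fxyd6*, a regulator of the sodium pump (1.03). *Igfbp6* had 1076 to 4387 CPM in members (median 3184) and 449 to 2806 CPM in other fibroblasts (median 1762), so the ranges overlapped. With clusters matched, 8 of the 10 were still called, all but *Cilp2* and *Fxyd6*. Without cells that had 2 or more chondrocyte or osteoblast markers, all 10 were called.

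Among small leucine-rich proteoglycans, which bind collagen fibrils, 4 of 10 tested genes of the list were higher and 0 lower, and the median log2 fold change of the list was 0.47 against -0.01 over all genes tested. The 4 were *Fmod* (1.41), *Ogn* (0.93), *Prelp* (0.87) and *Aspn* (0.60), and the rule genes *Dcn*, *Lum*, *Kera* and *Ecm2* were not counted. With clusters matched, 1 of 9 was higher and 0 lower. Of collagens, 2 of 26 tested were higher and 6 lower (median 0.07). Higher were *Col8a1* (0.99), a short-chain collagen, and *Col14a1* (0.83), which coats fibrils and is also a sublining marker. Lower were *Col11a2* (-1.86), a cartilage collagen, *Col13a1* (-1.72), *Col22a1* (-1.47) and others. This balance depended on skeletal cells. Without cells that had 2 or more chondrocyte or osteoblast markers, 7 of 22 collagens were higher and 2 lower, and without the clusters led by *Bglap* 6 of 25 were higher and 4 lower. With clusters matched, 0 of 21 were higher and 2 lower. *Col11a1*, a cartilage collagen, was called lower at -0.73 with all cells and higher at 0.92 without the cells with skeletal markers.

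Of complement genes, 9 of 14 tested were higher and 1 lower, with a median log2 fold change of 0.55. The 9 include *C1qtnf1* and *C1qtnf2*, which encode relatives of C1q and are not components of complement. With clusters matched, 2 of 13 were higher and 0 lower. The lower one with all cells was *Cd55* (-0.89), a surface inhibitor of complement that lining fibroblasts carry. Of matrix proteases and their inhibitors, 5 of 25 tested were higher and 3 lower (median 0.26). The higher ones included *Mmp11* (1.15), the proteoglycan-cleaving *Adamts15* (1.15) and the gelatinase *Mmp2* (0.90). The lower ones, *Timp4* (-0.89), *Adamts9* (-0.87) and *Timp1* (-0.74), were 1 protease and 2 inhibitors. With clusters matched, 1 of 20 proteases and inhibitors was higher and 0 lower.

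Of lysosome genes with their MiT/TFE regulators, 6 of 30 tested were higher and 0 lower (median 0.24). With clusters matched 1 of 28 was higher, and with UMIs per cell matched, or with the rule on 50% of the UMIs, 3 of 30 were. *Ctsk*, a cathepsin that degrades collagen, had 518 to 1708 CPM in members (median 851) and 277 to 736 CPM in other fibroblasts (median 433), with log2 fold change 0.91 (SE 0.10, adjusted p = 1.96e-06). *Mitf*, a transcription factor that acts on *Gpnmb*, was higher by a log2 fold change of 0.59, and the cathepsin *Ctsf* by 0.69. *Ctsk* was called in each of these settings, whereas *Mitf* was at 0.46 with clusters matched and 0.50 with UMIs matched and was called in neither, and *Ctsf*, at 0.30, was not called with clusters matched. Fibulins and elastic fibre genes were higher in 4 of 20 cases, led by *Hmcn1* (1.09) and the microfibril genes *Mfap4* (0.96) and *Mfap2* (0.93), and *Efemp1*, a fibulin, was lower (-0.94). With clusters matched, 3 of 20 were higher and 1 lower.

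Secreted Wnt regulators besides *Sfrp4* went both ways. Of 8 tested, *Dkk2* (0.99), *Sfrp2* (0.93) and *Dkk3* (0.82) were higher and the Wnt amplifier *Rspo3* (-0.94) lower, with a median of 0.05. Of 18 Wnt target and receptor genes, 4 were higher and 0 lower. With clusters matched, 1 of 7 secreted Wnt regulators was higher and 3 lower, and 0 of 9 target and receptor genes passed. TGF-beta signalling genes had a median of 0.03 with 4 of 22 higher, among them *Cilp* (0.98) and the ligand *Tgfb3* (0.66). In the BMP list, the antagonists *Chrdl1* and *Chrd* and the ligand subunit *Inhbb* were higher, and the antagonist *Grem1* (-0.70) and *Inhba* (-0.56) lower, of 18 tested. *Igfbp6* was the 1 call among 11 genes of the IGF list, and *Ifit3* (0.85) the 1 call among 15 interferon-induced genes. With clusters matched, 1 of 20 TGF-beta genes was higher and 0 lower, and 1 of 14 BMP genes was higher and 1 lower. In the same setting 1 of 9 IGF genes was higher and 1 lower, and 0 of 8 interferon-induced genes passed.

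Of inflammatory chemokines and cytokines, a list that also holds the prostaglandin synthases *Ptgs1* and *Ptgs2* and the decoy receptor *Tnfrsf11b*, 10 of 28 tested were lower in members and 0 higher, with a median log2 fold change of -0.37, and 18 did not pass. *Cxcl5*, which attracts neutrophils, had the largest fold (-2.22), followed by the lymphoid chemokine *Cxcl13* (-1.71), the eosinophil chemokine *Ccl11* (-1.68) and the prostaglandin synthase *Ptgs1* (-1.57). With clusters matched, 3 of 20 tested were still called lower. Near-identical chemokine genes can share reads, so single members of that family are uncertain. Of glycolysis genes, 1 of 17 was lower, the lactate transporter *Slc16a3* (-0.68). Immediate early genes, which respond to tissue digestion, were higher in 5 of 21 cases, with *Dusp1* (0.63) and *Fos* (0.61) the largest, and in none of those tested with clusters matched.

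The largest lower genes within the same limits were mainly markers of other cell types. *Col2a1*, the fibrillar collagen of cartilage, had 1.19 to 1712 CPM in members (median 27.3) and 4.91 to 5691 CPM in other fibroblasts (median 353), with log2 fold change -2.71 (SE 0.33, adjusted p = 8.24e-06). *Clic5*, a lining marker, had 0 to 25.1 CPM in members (median 5.04) and 10.7 to 141 CPM in other fibroblasts (median 44.7), with log2 fold change -2.50 (SE 0.25, adjusted p = 7.67e-07), and *Rgs5*, a pericyte gene, had 2.72 to 18.3 CPM in members (median 7.82) and 29.8 to 138 CPM in other fibroblasts (median 48.5), with log2 fold change -2.50 (SE 0.19, adjusted p = 3.06e-08). *Acta2*, the actin of smooth muscle, was lower by a log2 fold change of -1.72, the osteoblast genes *Bglap* and *Alpl* by -1.88 and -1.17, and the cartilage genes *Lect1* and *Col9a2* by -2.08 and -1.98. *Bglap* shares near-identical sequence with *Bglap2* and *Bglap3*, so its level is uncertain. Without cells that had 2 or more chondrocyte markers (*Col2a1*, *Acan*, *Lect1*, *Col9a1*, *Matn3* and *Hapln1*) or 2 or more osteoblast markers (*Bglap*, *Ibsp*, *Sp7*, *Alpl*, *Dmp1* and *Phex*), *Col2a1* was at -0.06, *Col9a2* at -0.80, *Bglap* at 0.057 and *Alpl* at 0.11, and none was called. Since the cells were left out for such genes, their loss follows from the choice of cells and is no separate test.

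**Figure D4:**
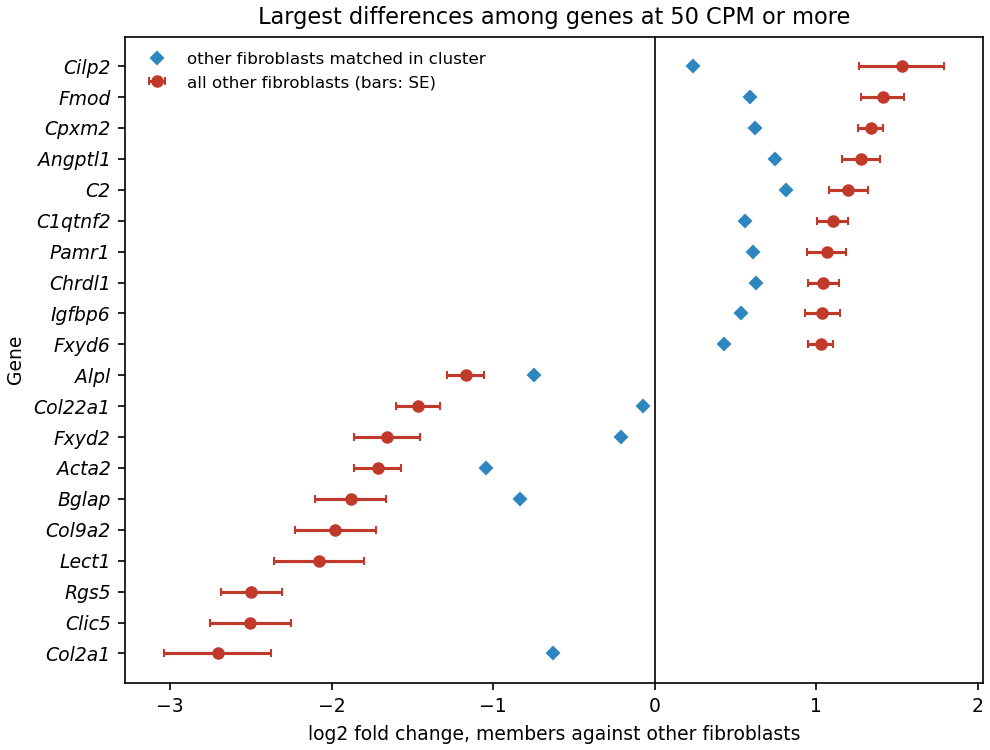
Log2 fold change of members against other fibroblasts with its standard error (x-axis) for the 10 genes (y-axis) with the largest changes in each direction among those with at least 50 CPM in the higher class and 1 direction in every library, and the same after drawing other fibroblasts to match the clusters of members (blue diamonds, where tested). *Cilp2* moves from 1.53 to 0.23 and *Bglap* from -1.88 to -0.83 with matching, while *Fmod*, *Cpxm2* and *Angptl1* stay called.

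A further 3 classes were set beside members, each defined by at least 3 of 5 markers, and the markers that define a class were left out of its test. Against 2203 tenocyte-marker cells, 477 of 7296 genes (6.54%) passed, 294 higher (4.03%) and 183 lower (2.51%) in members. *Pi16*, a peptidase inhibitor of sublining fibroblasts, had 225 to 902 CPM in members (median 576) and 25.8 to 152 CPM in tenocyte-marker cells (median 47.5), with log2 fold change 3.30 (SE 0.20, adjusted p = 3.93e-09), and the ranges did not overlap. *Inmt* (2.88), *Ccl8* (2.74), *Dpep1* (2.38) and *C4b* (2.22) were also higher, and *Ptx4* (-3.30), *S100a5* (-1.99) and the Wnt inhibitor *Wif1* (-1.89) lower. In this comparison 7 of 19 chemokines and cytokines were higher in members and 0 lower, with 7 of 13 complement genes higher and 1 lower.

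Against 3570 sublining-marker cells, 751 of 8358 genes (8.99%) passed, 456 higher (5.46%) and 295 lower (3.53%). *Chad*, which encodes the cartilage and tendon protein chondroadherin, had 261 to 1474 CPM in members (median 889) and 8.84 to 132 CPM in sublining-marker cells (median 31.4), with log2 fold change 4.62 (SE 0.30, adjusted p = 2.73e-08), again with no overlap. *Cilp2* (4.98) and the osteoblast genes *Ostn* (4.63), *Bglap2* (4.32) and *Spp1* (4.03) were higher, and *Cxcl13* (-2.77), *Ms4a4d* (-1.55) and *Cd55* (-1.49) lower. Across libraries members had 9.74 to 391 CPM of *Ostn* and 11.7 to 1405 CPM of *Bglap2*. Of members, 6.28% had at least 3 osteoblast markers, and their part in these folds was not tested. Small leucine-rich proteoglycans were higher in 8 and lower in 1 of 9 tested, with a median of 0.94, and chemokines and cytokines were higher in 1 and lower in 9 of 22. Of members, 745 themselves carried 3 sublining markers, so both classes share part of the sublining pattern.

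Against 612 lining-marker cells a larger share of genes passed, 1473 of 5515 (26.7%), 774 higher (14.0%) and 699 lower (12.7%) in members. *Sfrp2*, a relative of *Sfrp4*, had 122 to 2114 CPM in members (median 424) and 0 to 23.8 CPM in lining-marker cells (median 4.42), with log2 fold change 6.55 (SE 0.19, adjusted p = 8.60e-15). *F13a1*, a transglutaminase of coagulation, had 0 to 95.9 CPM in members (median 24.6) and 686 to 1262 CPM in lining-marker cells (median 932), with log2 fold change -4.89 (SE 0.31, adjusted p = 1.91e-10). Both sets of ranges were apart. All 9 small leucine-rich proteoglycans tested were higher in members (median 4.52), as were 12 of 13 complement genes (median 3.35) and 15 of 20 collagens. With total counts in place of TMM factors, 656 genes were higher and 978 lower, so 40.1% of the calls were higher in place of 52.5%, and the median of all genes moved to -0.12. The median depth of lining-marker cells was 9438.5 UMIs.

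*Hk2*, the hexokinase at the centre of the study, was not called between members and other fibroblasts. Pooled over libraries, cells with 1 or more *Hk2* UMIs made up 48.3% of members (95% Wilson interval 46.3% to 50.4%), 47.1% of other fibroblasts and 1.56% of endothelial-marker cells. Suffixes 10 to 12 gave 1002 of the 2214 members. There 59.5%, 62.6% and 64.4% of members were positive, against 53.5%, 53.4% and 56.6% of other fibroblasts. In suffixes 4 to 6, where members were the shallower cells, the shares were 37.8%, 52.6% and 37.2% against 55.2%, 56.5% and 59.9%. In the remaining runs the direction differed between libraries. Thinned to 2000 UMIs the pooled shares were 26.0% in members and 26.4% in other fibroblasts. The thinned shares in suffixes 10 to 12 were 33.7%, 33.4% and 37.8% in members against 33.9%, 31.5% and 37.6%. In suffixes 4 to 6 they were 26.7%, 30.8% and 18.6% against 26.5%, 30.2% and 30.4%. Much of the raw difference in these runs was thus gone at equal depth, except in suffix 6. Thinned shares were also lower in members in suffix 2 (9.6% against 21.1%) and suffix 9 (4.62% against 23.9%). Summed per library, *Hk2* had 179 ± 75.7 CPM in members and 191 ± 63.1 in other fibroblasts (SD, n = 12), and the fitted log2 difference was -0.06 (SE 0.10, adjusted p = 0.766). *Hk2* was higher in members than in lining-marker cells (log2 fold change 0.75, adjusted p = 0.000197). The share of *Hk2*-positive members ran from 21.5% in the *Spon2* cluster to 88.1% in the cluster led by *Ifi205*, *Ccl7* and *Ccl2*. *Hk1* had a log2 fold change of -0.20 against other fibroblasts (adjusted p = 0.229).

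Within members, labels were compared in 1 model of 12 libraries. By edgeR's quasi-likelihood test 0 of 8205 genes (0.0%) passed for peak, for resolving and for resolved against rest. At an unadjusted p under 0.05 there were 145, 156 and 150 genes, and DESeq2 called 0, 0 and 4. On simulated counts of the same shape, the test of peak against rest recovered 0% of genes changed by a log2 fold of 1 and 78.5% of those changed by 2. Each label holds libraries of 3 different runs, and the model had no term for the run. Differences between runs therefore counted as spread between libraries. Changes of a log2 fold of 1 between peak and rest were thus not detectable by this model. What a model with the run as a block detects is not given here.

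By runs the same libraries differed. Against suffixes 1 to 3, 446 of 8205 genes (5.44%) passed in suffixes 4 to 6, 243 higher (2.96%) and 203 lower (2.47%). In suffixes 7 to 9, 1048 (12.8%) passed, 522 higher (6.36%) and 526 lower (6.41%). In suffixes 10 to 12, 238 (2.9%) passed, 153 higher (1.86%) and 85 lower (1.04%). The 3 comparisons share the libraries with suffixes 1 to 3, so each is given by its own values. Rule genes among the calls numbered 4, 10 and 3 and are not counted below.

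In suffixes 4 to 6 members had higher levels of several inflammatory genes, and so did other fibroblasts of these suffixes. The members lay partly in different clusters in the 2 runs, since the cluster led by *Cxcl5*, *Saa3* and *Sfrp1* held 29 of the 166 members of suffixes 4 to 6 and 2 of the 533 of suffixes 1 to 3. *Cxcl5* had 206 UMIs against 1, a ratio of the shares of all UMIs of 779 with a 95% counting interval of 138 to 30929. *Slpi*, an inhibitor of neutrophil elastase, had 247, 192 and 401 CPM in suffixes 4, 5 and 6 against 3.45, 2.33 and 3.63 in suffixes 1, 2 and 3 (log2 fold change 6.37, SE 0.77, adjusted p = 0.000203). *Mmp3*, the matrix protease stromelysin, had 745, 603 and 970.2 against 152, 76.9 and 64.5 CPM (log2 fold change 2.95, SE 0.45, adjusted p = 0.00119). The groups did not overlap for any of these 3. *Angptl4*, an inhibitor of lipoprotein lipase that low oxygen induces, had 357, 470.0 and 382 against 50.8, 21.0 and 24.5 CPM (log2 fold change 3.59, SE 0.47, adjusted p = 0.000439), and *Hp*, the haemoglobin scavenger haptoglobin, was higher by a log2 fold change of 3.82.

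By list, chemokines and cytokines were higher in 4 and lower in 0 of 25 tested, with a median log2 fold change of 0.91 against -0.03 over all genes, and included the monocyte chemokines *Ccl7* (2.32) and *Ccl2* (1.53) and the prostaglandin synthase *Ptgs2* (2.14). Fibulins and elastic fibre genes were higher in 8 and lower in 1 of 20, led by the fibrillin *Fbn2* (4.22). The glycolysis list had 4 of 17 higher, among them *Gapdh* (0.93). In other fibroblasts of these suffixes 20 of 31 chemokines and cytokines were higher and 2 lower (median 1.05), 12 of 17 glycolysis genes were higher and 1 lower, and *Slpi* (6.17), *Mmp3* (3.19) and *Gapdh* (1.63) were called too. Other lists had many calls there as well. Of 22 Wnt target and receptor genes 3 were higher and 13 lower, and of 10 small leucine-rich proteoglycans 1 was higher and 8 lower. The share of all genes called in other fibroblasts is not given here, so these counts are not read as particular to a list. Among members, the Wnt antagonists *Sfrp1* (2.04) and *Sfrp2* (2.02) were higher. Lower were cartilage genes, among them *Col2a1*, with 11.8, 5.53 and 7.79 against 1712, 1365 and 436 CPM, and *Igfbp6* (-1.28). *Cox4i2*, a subunit of the respiratory chain, had 0 UMIs in suffixes 4 to 6 and 255 in suffixes 1 to 3, at least 22.5-fold lower against a floor of 3 counts over the group. Chondrocyte markers also moved with these runs in sum, as given above, and with cells of 2 or more skeletal markers left out 453 genes passed.

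Suffixes 7 to 9 differed in matrix genes, in members and in other fibroblasts. *Mfap2*, a microfibril glycoprotein, had 763, 676 and 709.8 CPM in suffixes 7, 8 and 9 against 183, 178 and 192 in suffixes 1, 2 and 3 (log2 fold change 2.00, SE 0.17, adjusted p = 3.14e-06), and *Col3a1*, a fibrillar collagen of loose connective tissue, had 12999.8, 14369.7 and 12139.9 against 5457, 5780.1 and 5338 CPM (log2 fold change 1.29, SE 0.17, adjusted p = 0.000176). Collagens were higher in 10 and lower in 2 of 23 tested (median 0.48, against -0.01 over all genes). Matrix proteases and inhibitors were higher in 9 and lower in 1 of 22, with *Adamts15* (3.42) and *Mmp2* (1.20) higher and *Timp3* (-1.35) lower. The small leucine-rich proteoglycans went mostly the other way, with 1 of 10 higher, *Bgn* (1.10), and 6 lower (median -0.94). In other fibroblasts of these suffixes 15 of 27 collagens were higher and 5 lower (median 0.77), 11 of 20 fibulin and elastic fibre genes were higher and 3 lower, and 5 of 10 small leucine-rich proteoglycans were lower and 1 higher, and *Mfap2* (1.79) and *Col3a1* (1.25) were called there too. Of 22 Wnt target and receptor genes 2 were higher and 8 lower there. With the share of all genes called in other fibroblasts not given here, these counts are not read as particular to matrix genes.

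In the same suffixes *Slpi* (5.74), *Hp* (4.86) and the interferon-induced *Isg15* (2.47) were higher. Chemokines and cytokines split into 4 higher and 6 lower of 25, with *Cxcl5* (6.82) higher and *Cxcl13* (-5.69) and the macrophage growth factor *Csf1* (-1.65) lower. Lower too were *C7* (-5.87), the BMP antagonist *Nog* (-3.47) and *Chad* (-1.81). Of Wnt target and receptor genes, 4 of 14 were lower (median -0.58). The members of this run lay largely in the *Spon2* cluster, which held 42.4%, 56.8% and 47.0% of them in suffixes 7, 8 and 9 and at most 7.69% in any other library.

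Suffixes 10 to 12, where members were most frequent, had the fewest calls. *Mmp2* had 2095, 2964 and 2596 CPM against 1282, 1051 and 1181 (log2 fold change 1.22, SE 0.13, adjusted p = 0.000127), and *Ctsk* had 1058, 1708 and 1477 against 720.1, 613 and 605 (log2 fold change 1.22, SE 0.15, adjusted p = 0.000324). Neither pair of groups overlapped. *Mmp3* was higher (2.23), as were *Ccl7* (1.52), *Ccl2* (1.41), the neutrophil chemokine *Cxcl1* (1.62) and *Il6* (1.12), while *Saa3*, an acute-phase protein (-4.78), *Cxcl13* (-4.69) and *Col11a1* (-2.23) were lower. Immediate early genes were higher in 9 and lower in 0 of 21 (median 0.69, against -0.02 over all genes), and their part in the chemokine values was not tested. *Ccl2*, *Ccl7* and *Cxcl1* were also called in other fibroblasts of these suffixes, with 1.14, 1.25 and 1.37. With total counts in place of TMM factors, 104 genes were higher and 129 lower, so 44.6% of the calls were higher in place of 64.3%, with the median of all genes at -0.12. *Hk2* was higher in these suffixes both in members (log2 fold change 1.20, adjusted p = 0.00816) and in other fibroblasts (0.93).

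The difference between members and other fibroblasts was itself tested across the runs. It changed for 239 of 11844 genes (2.02%) in suffixes 4 to 6, for 46 (0.388%) in suffixes 7 to 9 and for 36 (0.304%) in suffixes 10 to 12, with 8, 2 and 2 rule genes among them. In suffixes 4 to 6, 107 of these differences were positive and 132 negative, so 44.8% were positive, and with another scaling (RLE factors) 59.8% of 189 were. *Chad* showed the pattern of suffixes 4 to 6. In members it had 780.3, 922 and 682 CPM against 1315, 909 and 910.0 in suffixes 1, 2 and 3, whereas in other fibroblasts it had 139, 177 and 128 against 1878, 907 and 1612, and the difference of the log2 fold changes was 2.77 (SE 0.28, adjusted p = 4.50e-05). *Timp3*, a tissue inhibitor of metalloproteinases, had 309.8, 251 and 323 against 320.4, 274 and 319 CPM in members and 108, 89.9 and 107 against 345, 212 and 352 in other fibroblasts (difference 1.40, SE 0.15, adjusted p = 7.12e-05). For both genes the 3 libraries of suffixes 4 to 6 lay apart from suffixes 1 to 3 in other fibroblasts only. *Lox*, which cross-links collagen, had 463, 559 and 814 against 261, 375 and 292 CPM in members and 736, 616 and 764 against 111, 159.9 and 146 in other fibroblasts (difference -1.48, SE 0.17, adjusted p = 7.99e-05). Summed chondrocyte markers in other fibroblasts also moved, from 5636 to 10382 CPM in suffixes 1 to 3 to 291 to 839 in suffixes 4 to 6, and their part in these differences was not tested.

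In suffixes 10 to 12 *Mmp2* differed from suffixes 1 to 3 in members, as given above, and had 864, 973 and 807 CPM against 817, 877 and 822 in other fibroblasts, a difference of 1.09 (SE 0.13, adjusted p = 0.000589). *Lrrc15*, a membrane protein of matrix-producing fibroblasts, had 39.0, 83.4 and 70.5 against 38, 16.3 and 17.3 CPM in members and 14.9, 20.2 and 26.9 against 40.8, 22.1 and 31.3 in other fibroblasts (difference 2.00, SE 0.26, adjusted p = 0.000715). These 2 genes differed between runs in members more than in other fibroblasts. In suffixes 7 to 9 *Sod3*, an extracellular superoxide dismutase, had 376, 296 and 381 CPM in members against 480.1, 701 and 847 and 432, 317 and 355 against 271, 353 and 445 in other fibroblasts (difference -0.97, SE 0.14, adjusted p = 0.00229). By label, the difference between members and other fibroblasts changed for 0 genes at peak (0.0%), 4 in the resolving stage (0.0338%) and 0 in the resolved stage by edgeR, with 286, 390 and 321 genes at an unadjusted p under 0.05 and 0, 1 and 0 by DESeq2.

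**Figure D5:**
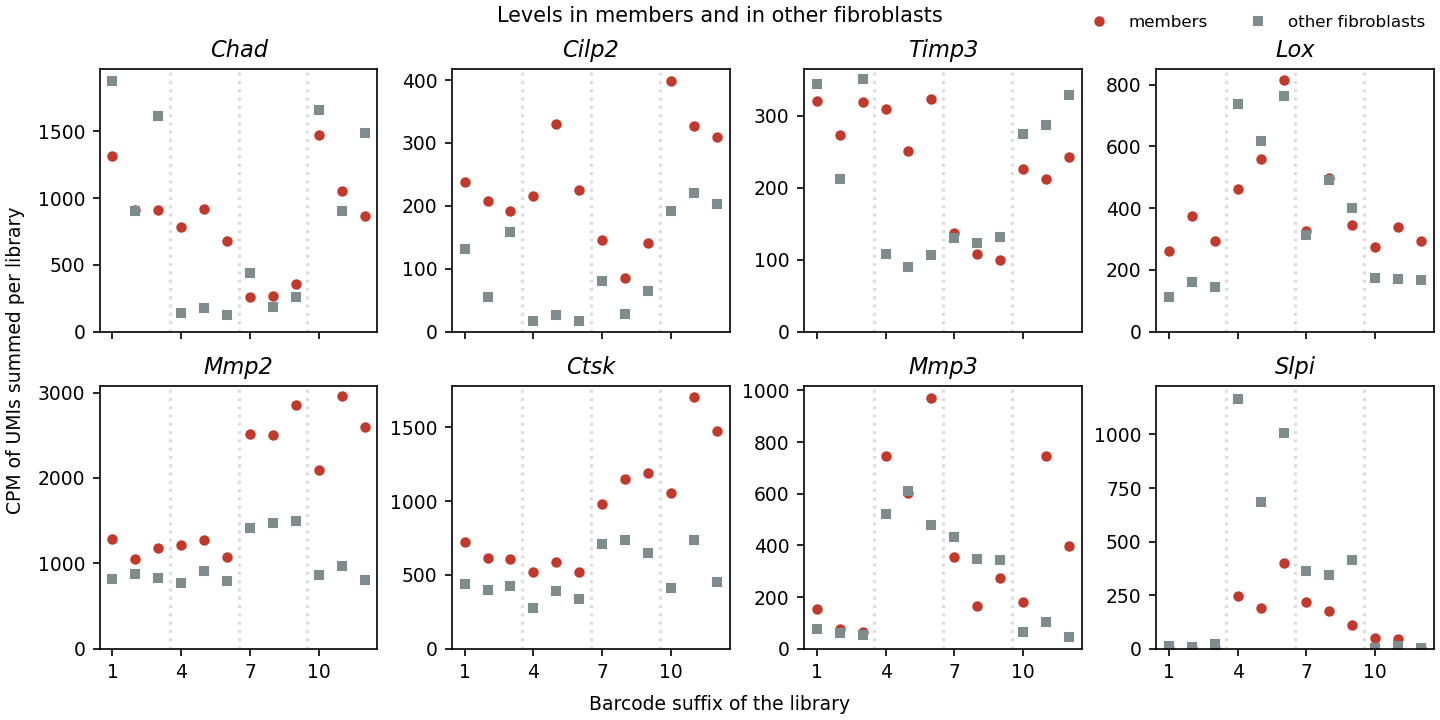
CPM (y-axes) of 8 genes in members (red circles) and other fibroblasts (grey squares) of each library by barcode suffix (x-axis), with dotted lines between runs. In suffixes 4 to 6 *Chad* lies at 682 to 922 CPM in members and 128 to 177 in other fibroblasts, and in suffixes 10 to 12 *Mmp2* and *Ctsk* are higher in members.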

How the data were processed

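UMI counts per gene and cell of 12 libraries (10x Genomics, 3′ chemistry) were used as deposited. Per the labels and the methods of the study, the authors aligned reads to mm10 with Cell Ranger, and replicates were not pooled in the files. The same median depth in every library points to counts brought to 1 depth by a step that is not given in the sources used here, so total counts compare depth only in part. Gene names came from the files, and 27645 of 27998 gene IDs were found in GENCODE M21 (GRCm38), which gave the positions.

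Members were found by the rule in each library. Members, classes, gene lists and runs of suffixes were all chosen with earlier results of these data known, so no p-value here is independent of them. All 20213 cells within the limits were clustered with scanpy 1.11.5 without the 18 rule genes (10000 UMIs per cell, 2000 variable genes, 30 principal components, 20 neighbours, Leiden resolution 1, seed 1). Clusters are named by their 3 leading genes. The rule genes, gene models named Gm or ending in Rik and genes detected in few cells of a cluster were left out of that ranking, so no rule gene could lead a cluster. Counts were summed per library and class where at least 10 cells were present and tested with edgeR 4.0.16 (quasi-likelihood test, TMM factors, filterByExpr, Benjamini-Hochberg adjustment over all genes tested). Comparisons between classes had the library as a block, and comparisons within members had the label or the run as group. A gene passed at an adjusted p under 0.05 and a log2 fold change over 0.5, and for differences between changes at the adjusted p alone. DESeq2 1.42.0 was an alternative. No doublets were removed, since Scrublet at its own threshold marked 56 cells (0.277%). P-values measure the spread between libraries, each a pool of animals.

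Named genes were the 18 rule genes, without a test, and the 10 largest log2 fold changes each way against other fibroblasts with 1 direction in every library and at least 50 CPM in the higher class. For the other classes and runs they were the 5 largest each way, with the genes of the fixed lists that passed, *Hk2* and *Hk1*, and further called genes of a list were named after their values were seen. On simulated counts the comparison with other fibroblasts recovered 90% of 200 genes changed by a log2 fold of 1 among 10274, with 3.74% false calls. For suffixes 4 to 6 against 1 to 3 the test recovered 26.5% at a log2 fold of 1 among 7934 genes and 81% at 2 among 8035. False calls made up 10.2% and 5.26% of the calls. For the same runs, the test of the difference between members and other fibroblasts recovered 26.5% at a log2 fold of 1 among 11715 genes. There 8.62% of the calls were false. Replicate numbers of the labels were not taken to pair libraries, since same-numbered libraries had correlations of their deviations from -0.05 to 0.40 in members. Intervals cover counting error only. Results for some single genes are not reported here.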

Additional observations from a re-analysis of the deposited data

Results flagged for a closer look

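The results below are listed because the change between runs, or between labels, differed between members and other fibroblasts by the test of the difference itself (edgeR, adjusted over all genes tested). Outside the 18 rule genes, the difference passed for 231 genes in suffixes 4 to 6, 44 in suffixes 7 to 9 and 34 in suffixes 10 to 12, each against suffixes 1 to 3. In suffixes 4 to 6 the differences of the log2 fold changes, members minus other fibroblasts, were 2.77 for *Chad*, 1.40 for *Timp3* and -1.48 for *Lox*. In suffixes 7 to 9 they were -0.97 for *Sod3*, -0.96 for *Cav1*, which encodes the coat protein of caveolae, and 1.45 for *Gxylt2*, a xylosyltransferase. In suffixes 10 to 12 they were 1.09 for *Mmp2*, 2.78 for *Epyc*, a small leucine-rich proteoglycan, and 2.00 for *Lrrc15*. *Epyc* had a mean of 68.9 CPM in members against 80.7 in suffixes 1 to 3, and of 19.9 against 155 in other fibroblasts.

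Between the labels resolving and rest, 4 genes passed. They were *Col10a1* (-12.24), the collagen of hypertrophic cartilage, and the muscle genes *Myl2* (11.99), *Tnnc1* (7.39) and *Csrp3* (7.74). These fitted values depend on counts at or near 0 and are no measure of size. In members, rest replicate 1 held 707 *Col10a1* UMIs and each other library 0 or 1, and resolving replicate 3 held 61 *Tnnc1* and 78 *Csrp3* UMIs. Without rest replicate 1 no gene passed.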

How the results depend on the processing

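The shares of members depended on the rule. With 3 markers in place of 4 the mean shares were 29.3%, 30.9%, 45.3% and 33.2% by label and 39.6%, 15.2%, 33.4% and 50.4% by run, and with 5 markers they were 3.06% at rest and 8.16% in the resolving stage, and 4.60%, 0.604%, 2.97% and 12.7% by run. Without a limit on tenocyte markers, suffixes 4 to 6 had 5.92% and 7 to 9 had 18.1%. Thinned to 2000 UMIs the resolving mean was 8.66% and the run means 5.66%, 1.83%, 3.52% and 13.5%, and of all cells suffixes 1 to 3 had 12%, 7 to 9 had 8.26% and 10 to 12 had 19.1%. Over these settings the exact permutation p ran from 0.00013 to 0.00039 for runs and from 0.56 to 0.82 for labels. Leaving out each library in turn, the label means ranged over 7.34% to 14.7%, 8.19% to 18.5%, 14.8% to 25.6% and 9.83% to 20.8%, and the run means over 14.7% to 18.4%, 3.92% to 5.07%, 11% to 14.2% and 25.2% to 30.6%. Without the library block 213 genes passed against other fibroblasts, 254 against tenocyte-marker cells and 440 against sublining-marker cells, and with clusters matched 82 passed against other fibroblasts, where fewer genes were tested. Matching of clusters and leaving out cells with skeletal markers were chosen after seeing the data. Leaving out single libraries gave 585 to 665, 405 to 495, 1381 to 1595 and 694 to 793 genes against other fibroblasts, tenocyte-, lining- and sublining-marker cells. Within members it gave 174 to 448 genes in suffixes 4 to 6 (fewest without rest replicate 2 at 174, and 296, 283 and 286 without peak 1, resolving 1 and peak 2), 495 to 1058 in suffixes 7 to 9 (495 without resolved replicate 2) and 111 to 250 in suffixes 10 to 12 (111, 124, 134 and 139 without resolving 3, resolving 1, peak 1 and resolved 3), and 0 for each label. For the difference between members and other fibroblasts it gave 111 to 289 genes in suffixes 4 to 6 (111, 120, 128 and 143 without resolved 1, resolving 1, rest 1 and peak 2), 16 to 58 in suffixes 7 to 9 (16, 18, 19, 20 and 29 without rest 1, rest 3, resolving 1, resolved 2 and resolving 2) and 25 to 85 in suffixes 10 to 12 (85 without peak 3). By label it gave 0 to 2 at peak (2 without peak 1), 0 to 16 in the resolving stage (0, 1 and 16 without rest 1, resolving 3 and resolving 2) and 0 to 1 in the resolved stage (1 without resolving 3). Without a filter on low counts 759 genes passed in suffixes 4 to 6, 644 in suffixes 10 to 12, 1 in the resolving and 5 in the resolved stage. DESeq2 called 4 genes in the resolved stage and, for the difference between classes, 72 in suffixes 7 to 9 and 1 in the resolving stage. With the label as a block 321, 682 and 206 genes passed in the 3 runs. With the replicate number as a block, which is nearly the same division as the runs, 4, 5 and 0 genes passed in the 3 runs and 1 in the resolved stage, and signs turned for *Cxcl3* (-2.56), *Frzb* (0.93) and *Oasl2* (-4.62) in suffixes 7 to 9 and for *Angptl2* (-0.028) and *Col22a1* (-6.17) in suffixes 10 to 12. Signs also turned for *Alpl* (0.11), *Bglap* (0.057) and *Col11a1* (0.92, called both ways) against other fibroblasts, where 12 of the 586 called genes still tested turned, and *Col27a1* (0.43) in suffixes 4 to 6 without skeletal-marker cells, and for *Grem1* (0.22) with 3 markers; beyond the replicate block, the cause of these turns was not tested. Of the remaining values for named genes under all settings, 7349 kept their direction and their side of the threshold, 723 kept only the direction and 1 passed only under an alternative. Depth limits the members of suffixes 4 to 6 most, where 43 to 78 cells per library gave the sums.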

Other observations

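Few members were cycling. At least 3 of the cycling markers *Mki67*, *Top2a*, *Ccnb1* and *Birc5* were detected in 26 members (1.17%) and in 451 other fibroblasts (3.75%). These shares pool the libraries, and suffixes 4 to 6 gave 166 of the 2214 members. There the shares were 6.67%, 6.41% and 4.65% in members against 10.8%, 6.42% and 9.67% in other fibroblasts. In suffixes 1 to 3 they were 1.92%, 0% and 1.36% against 1.48%, 0.713% and 0.535%. In suffixes 7 to 9 they were 1.32%, 1.69% and 0% against 2.59%, 4.75% and 2.37%. Suffixes 10 to 12, which gave 1002 members, had 0.488%, 0% and 0% against 0%, 0.156% and 0.143%. The pooled difference thus depends in part on how members were spread over the runs. The summed level of these markers in members was 118 to 345 CPM in suffixes 4 to 6, against 10.5 to 50 in suffixes 1 to 3, 0 to 82.0 in suffixes 7 to 9 and 1.19 to 28.8 in suffixes 10 to 12. In other fibroblasts it was 153 to 247, 29.4 to 65.0, 68.5 to 148 and 4.38 to 10.2 CPM in the same order of runs, so both classes had their highest levels in suffixes 4 to 6. Summed lining markers lay between 899 and 12603 CPM in members and between 4000 and 33099 CPM in other fibroblasts.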
